A study of Mus musculus with 9 samples.

Results

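The messenger RNAs of 50 genes of mitosis were followed in the colonic mucosa of mice given a colon carcinogen, with or without a diet rich in calcium. The genes were listed by symbol, as cyclins, kinases, checkpoint, kinetochore, spindle, cytokinesis and chromosome proteins. The list was chosen with earlier results of these data known. A probe could be named for 48 of the 50 through its RefSeq transcript, and all 48 passed the filter on dim probes. They were read out of a fit over 21084 features. Cdkn3 and Prc1 had no probe named here. Of the 48, 46 were well above background on all 9 arrays, so the filter did not favour genes that were high in 1 group only; the others were Aurkb, on 0 of 3 arrays without tumors, 3 of 3 with tumors and 2 of 3 DMH arrays, and Hmmr, on 2 of 3 arrays with tumors and on every other array.

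The tissue was colonic mucosa, labelled normal, and the mice belonged to the ICR stock, which is outbred. Controls and high calcium mice alike had been given 1,2-dimethylhydrazine (DMH), which induces colon tumors, as 20 weekly injections under the skin of 20 mg/kg. The group hCA-Notumor ate 3% calcium and had no tumors, the group hCA-Tumor ate 3% calcium and had tumors, and the group DMH ate 1.24% calcium and is labelled only as control for its tumor status. Each group had 3 arrays, and since the labels do not say whether these came from separate mice, p-values measure the spread between arrays only, which may be technical. Ages and sexes are not given in the sources used here. The labelled tissue showed its epithelial genes: the adhesion protein Epcam lay between 6.18 and 6.33 and the colonocyte keratin Krt20 between 6.98 and 7.54 on all 9 arrays, in log2 units above each array's 75th percentile. That scale is used for every level below. A value of 0 is the 75th percentile of the array's signals, and 1 unit is a 2-fold step. By their headers the arrays came from 3 slides. DMH replicate 1 shared slide 1 with all 3 hCA-Notumor arrays. DMH replicates 2 and 3 shared slide 2 with hCA-Tumor replicates 1 and 2, and hCA-Tumor replicate 3 was alone on slide 3. With slide as a block, each high calcium group is compared with DMH on its own slide, and hCA-Tumor replicate 3 drops out. For the group without tumors this means DMH replicate 1 alone, so its values with the block rest on that array. No spread between DMH arrays can be seen on slide 1.

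Cells enter mitosis when cyclin B, bound to the kinase Cdk1, is activated, and they leave it when the anaphase promoting complex marks cyclin B and securin for destruction and separase releases the sister chromatids. Most genes of this set are transcribed late in the cell cycle, in G2 and mitosis, under MuvB complexes with B-Myb and Foxm1, and they are repressed in resting cells. In the colon most dividing cells are the progenitors in the lower part of the crypts, and immune and stromal cells can divide as well. The share of each source in these messenger RNAs was not measured here.

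Mitosis genes were lower in the high calcium groups, and lowest in the group without tumors. Against DMH, the mean of both high calcium groups was lower past the threshold (limma, adjusted p under 0.05) in 42 of 48 members and higher in 0. Over all features 31.6% were called in this comparison, 13.8% as lower and 17.9% as higher. The difference lay below 0 in 47 of 48 members, where it did in 40.5% of all features. The median difference over the 48 members was -0.63 log2 units, and that over all features 0.07. All 6 high calcium arrays lay below all 3 DMH arrays for 38 members, an arrangement seen in 9.42% of all features. No called member differed by 2-fold or more in this comparison. In RNA from whole mucosa, fewer dividing cells and less of these RNAs per cell cannot be told apart.

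**Figure D1:**
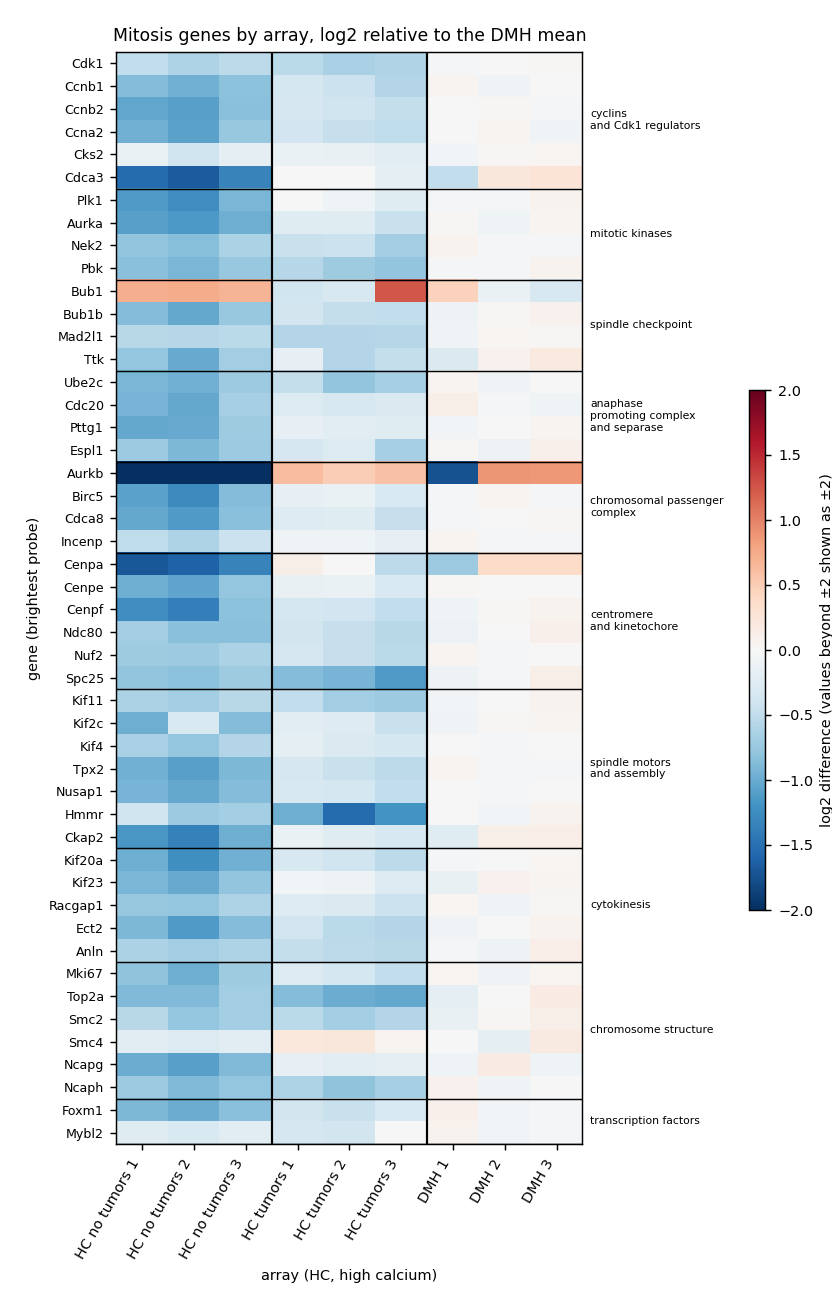
Each row is 1 of the 48 measured mitosis genes, grouped by role, and each column 1 array (HC, high calcium); colour gives the log2 signal minus the mean of the 3 DMH arrays, with values beyond 2 units drawn as 2. Most rows are blue on the high calcium arrays, deepest without tumors; Bub1 is red on 5 of 9 arrays, and Aurkb, Cenpa and Cdca3 are blue on DMH replicate 1 as well.

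The group without tumors was lower than DMH in 45 of 48 members and higher in 0, where 17.3% of all features were lower, 18.4% higher and 35.7% changed in either direction. Its difference was below 0 in 47 members, and in 42.2% of all features. Its median difference was -0.85 against 0.07 over all features, and 10 members called lower differed by 2-fold or more, where 1150 of the 21084 features did so in either direction. All 3 of its arrays lay below all 3 DMH arrays for 47 members, which held for 24.1% of all features. The group with tumors was lower than DMH in 31 members and higher in 0, where 15.9% of all features were lower, 21.0% higher and 37.0% changed either way. Its difference was below 0 in 45 members, and in 40.9% of all features. Its median difference was -0.39 against 0.08, and its arrays lay below the DMH arrays for 38 members (21.3% of all features). In the authors' deposited whole-series table, which holds 46 of the members, 15 members were called lower with tumors, where that table called 13.0% of its features in either direction.

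The 2 high calcium groups were compared directly as well, since both differences above share the DMH arrays. Differences between them are given as the group without tumors minus the group with tumors. The group without tumors was lower than the group with tumors in 31 members and higher in 1, Hmmr, at a background of 27.0% of features lower, 20.6% higher and 47.6% either way. The difference was below 0 in 41 members (50.2% of all features), and its median was -0.42 against 0. The arrays of the groups did not overlap, with those without tumors lower, for 33 members (33.2% of all features). For 25 members the arrays fell into the order without tumors, with tumors, DMH with no overlap at all, which 2.96% of all features did. The high calcium groups never shared a slide, so with slide as a block they are linked only through the DMH arrays. In that fit 22 members were lower, 0 were higher, and the median was -0.5, at a background of 30.0% called either way. The members that passed without the block and not with it were Ccna2, Bub1b, Espl1, Aurkb, Cenpa, Cenpf, Ndc80, Hmmr, Ckap2, Ect2 and Smc4. In the authors' deposited values 19 of 46 members were lower and 0 higher, against 25.9% of features called either way. With a bound for Aurkb, whose signal without tumors was not above background, in place of its fitted value the medians stayed at -0.85 and -0.42. Aurkb lay below both medians either way, so they could not move and this tests nothing. The bound against DMH has the limit given for Aurkb below.

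**Figure D2:**
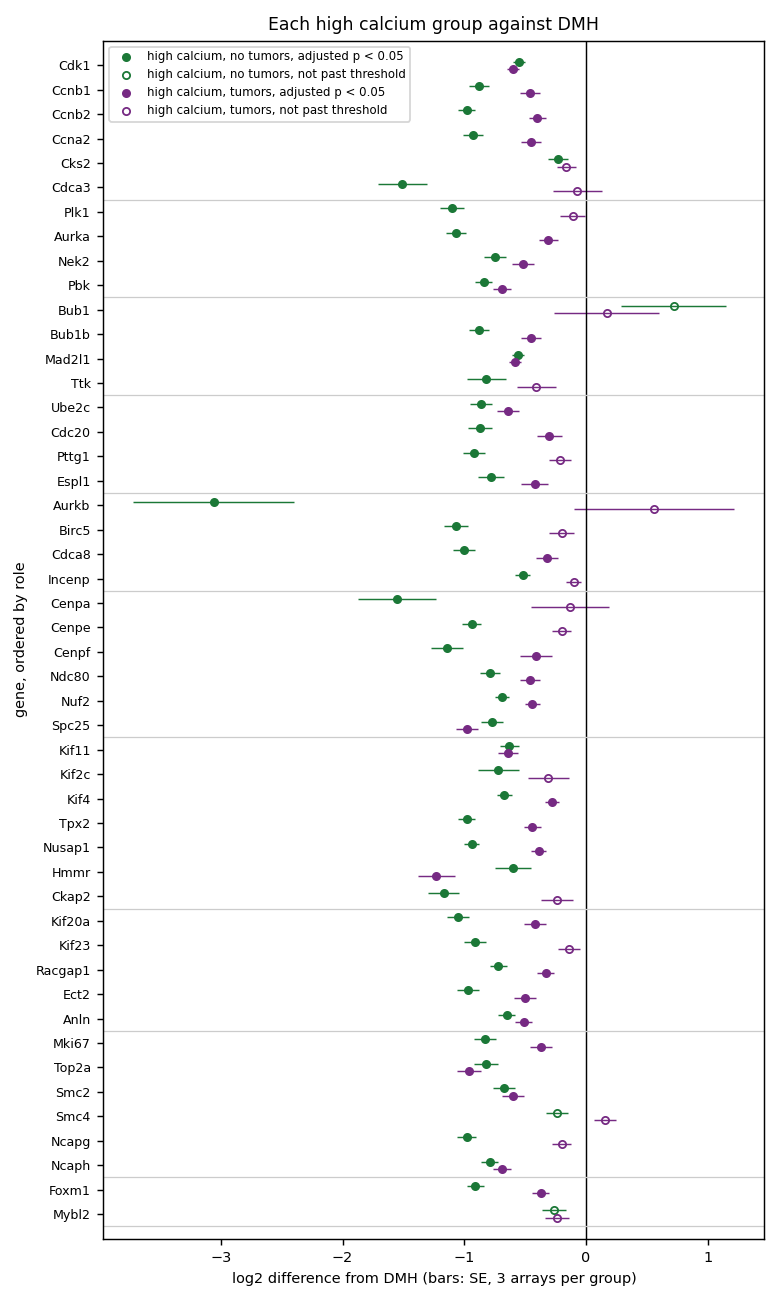
Points give the log2 difference of each high calcium group from DMH for each measured member, with bars of 1 standard error (3 arrays per group); filled points passed the threshold. The points without tumors have a median of -0.85 and run from -3.06 to 0.72. Those with tumors have a median of -0.39 and run from -1.23 to 0.56. Both points nearly coincide for Cdk1, Mad2l1 and Kif11.

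Promoters of the members that moved most are shown because genes of late G2 and mitosis are known to share a short element at their start sites, the cell cycle genes homology region (CHR), often with CCAAT boxes upstream. RefSeq promoters (assembly GRCm38.p6, 250 bases before to 50 after the start) were matched to 42 of the 50 members. Of the members printed below, Cenpa did not pass between high calcium and DMH (adjusted p = 0.0529). Hmmr lost its call with another background correction (-0.19, adjusted p = 0.417), and Cdca3 without DMH replicate 2 or 3. The 5 printed are those with the largest differences between high calcium and DMH among members that hold a CHR. Each is written 5′ to 3′ along the gene's own strand, and capitals mark the CHR (TTTGAA or TTCGAA) and the CCAAT box (CCAAT), each on either strand, so that TTCAAA and ATTGG are the same words read from the other strand.
Hmmr (chr11:40733388-40733687, minus strand): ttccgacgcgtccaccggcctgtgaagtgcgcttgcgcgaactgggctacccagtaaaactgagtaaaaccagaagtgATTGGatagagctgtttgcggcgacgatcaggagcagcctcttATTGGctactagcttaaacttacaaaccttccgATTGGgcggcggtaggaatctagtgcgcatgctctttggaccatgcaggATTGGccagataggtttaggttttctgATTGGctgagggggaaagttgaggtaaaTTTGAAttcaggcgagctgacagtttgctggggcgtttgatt
Top2a (chr11:99024140-99024439, minus strand): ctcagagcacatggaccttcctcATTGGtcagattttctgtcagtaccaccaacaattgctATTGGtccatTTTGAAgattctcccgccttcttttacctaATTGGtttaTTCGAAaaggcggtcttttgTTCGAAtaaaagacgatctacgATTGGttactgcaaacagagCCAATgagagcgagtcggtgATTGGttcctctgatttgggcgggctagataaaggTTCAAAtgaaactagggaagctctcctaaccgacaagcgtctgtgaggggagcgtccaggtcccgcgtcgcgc
Spc25 (chr2:69206164-69206463, minus strand): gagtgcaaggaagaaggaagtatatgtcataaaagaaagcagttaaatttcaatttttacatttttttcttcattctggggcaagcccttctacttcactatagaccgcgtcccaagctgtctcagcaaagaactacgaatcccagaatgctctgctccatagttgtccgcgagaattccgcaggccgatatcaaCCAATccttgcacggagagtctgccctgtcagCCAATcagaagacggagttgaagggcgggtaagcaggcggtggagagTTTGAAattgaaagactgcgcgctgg
Cenpa (chr5:30666636-30666935, plus strand): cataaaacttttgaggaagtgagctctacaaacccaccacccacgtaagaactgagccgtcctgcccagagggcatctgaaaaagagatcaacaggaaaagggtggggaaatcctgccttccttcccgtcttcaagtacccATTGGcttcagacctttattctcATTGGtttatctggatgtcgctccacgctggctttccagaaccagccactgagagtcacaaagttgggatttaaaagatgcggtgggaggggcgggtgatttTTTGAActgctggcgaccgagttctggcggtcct
Cdca3 (chr6:124829926-124830225, plus strand): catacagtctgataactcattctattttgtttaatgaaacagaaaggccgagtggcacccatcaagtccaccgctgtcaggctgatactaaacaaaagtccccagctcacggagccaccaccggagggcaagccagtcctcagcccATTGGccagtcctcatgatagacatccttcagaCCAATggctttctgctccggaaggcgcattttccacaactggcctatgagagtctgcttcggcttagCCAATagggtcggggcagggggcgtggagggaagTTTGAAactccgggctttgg
The single CHR lay 9 bases into the transcribed part in Hmmr, and 25, 17 and 31 bases into it in Spc25, Cenpa and Cdca3, counting the start as 1. Top2a held 4, at -179, -140, -120 and -23 (first base, with the base before the start as -1). Hmmr had 5 CCAAT boxes between -172 and -20, and Top2a had 6 between -227 and -58. The other promoters held CCAAT boxes at -55 and -23 (Spc25), at -109 and -86 (Cenpa), and at -104, -71 and -4 (Cdca3).

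A CHR was present in 31 of the 42 matched members (73.8%) and in 21.7% of all 27025 genes of the promoter table. CCAAT boxes were found in 32 members (76.2%, against 41.1% of all genes), and 28 members had both words (66.7% against 8.61%). A pair or more of CCAAT boxes occurred in 21 members (50% against 13.3%). The E2F site was searched on either strand as the letters TTGGCGC, as the letters TTCGCGC and as the letters TCCCGCC, and 15 members held it (35.7% against 16.1%). The first of these words also counts as a CCAAT box where an A precedes it. The members were chosen for their role in mitosis, so the shares describe the family and not the diet. Among members that did not pass in the comparison of both high calcium groups with DMH, Cks2 and Mybl2 held no CHR in this window while Bub1 and Cenpa did. The other members that did not pass, Aurkb and Smc4, had no matched promoter. Birc5, Ccnb1, Cenpe, Mad2l1, Ncaph, Nek2, Nuf2, Nusap1 and Pttg1 held no CHR either, and all of these were called lower.

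The cyclins and their kinase came down together. Of 6 measured members of this group 5 were lower in the mean of both high calcium groups: Cdk1, the kinase that drives entry into mitosis, by -0.57 ± 0.05 (SE), and its partners Ccnb1, Ccnb2 and Ccna2 by -0.67 ± 0.07, -0.69 ± 0.06 and -0.69 ± 0.07, all at adjusted p of at most 0.000523. Cdk1 did not share the order of the groups. It read -0.33, -0.45 and -0.36 on the arrays without tumors, -0.37, -0.48 and -0.43 with tumors, and 0.14, 0.18 and 0.19 in DMH. Both high calcium groups were thus equally far below DMH, and the difference between them was 0.04 ± 0.05 (adjusted p = 0.53). Ccnb1, the cyclin that binds Cdk1 at mitotic entry, read -0.27, -0.37 and -0.22 without tumors, 0.24, 0.16 and 0.00 with tumors, and 0.65, 0.53 and 0.60 in DMH, 3 separate levels with a difference of -0.42 ± 0.08 between the high calcium groups (adjusted p = 0.00324).

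Cdca3, which helps trigger the destruction of Wee1 and so mitotic entry, showed the largest difference of this group at -0.79 ± 0.18 (adjusted p = 0.0131). Its brightest probe read -0.96, -1.09 and -0.76 without tumors, 0.57, 0.56 and 0.38 with tumors, and 0.08, 0.80 and 0.84 in DMH. The array of DMH that lay apart, replicate 1, is the one that shared slide 1 with the arrays without tumors. The difference between the high calcium groups was -1.44 ± 0.20 (adjusted p = 0.0011), and -0.76 with slide as a block (adjusted p = 0.0216). A second probe of Cdca3 read -0.39, -0.46 and -0.33, then -0.50, -0.57 and -0.60, then 0.39, 0.08 and 0.20 for the same groups. It was thus lower than DMH in both high calcium groups, by -0.62 ± 0.08 and -0.78 ± 0.08 (adjusted p = 0.00121 and 0.000492), and did not separate them (0.16 ± 0.08, adjusted p = 0.158). Without DMH replicate 2 or 3 the brightest probe no longer passed in the mean of both groups (-0.67, adjusted p = 0.0571, and -0.65, adjusted p = 0.0596).

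Cks2, a small subunit of Cdk complexes, moved least here. Its values were 2.86, 2.59 and 2.80 without tumors, 2.86, 2.84 and 2.78 with tumors, and 2.93, 3.01 and 3.02 in DMH, and its difference of -0.20 ± 0.07 did not pass (adjusted p = 0.0581). Every high calcium array nevertheless lay below every DMH array. Without tumors it passed narrowly at -0.23 ± 0.08 (adjusted p = 0.0491), and that call was lost in 14 of 22 other settings.

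The kinases Plk1, Aurka, Nek2 and Pbk, grouped here as mitotic kinases, were all lower in the mean of both high calcium groups. Pbk, a kinase of mitotic cells, changed most: it read -0.18, -0.25 and -0.10 without tumors, 0.10, -0.05 and -0.12 with tumors, and 0.63, 0.63 and 0.73 in DMH. The high calcium groups overlapped, both far below DMH, and their mean differed from it by -0.76 ± 0.06 (adjusted p = 0.0002). Plk1, the polo kinase needed for spindle assembly and for anaphase, changed least in that mean (-0.60 ± 0.08, adjusted p = 0.00179), with low values in 1 of the groups only. It read -0.16, -0.28 and 0.05 without tumors, 0.96, 0.88 and 0.73 with tumors, and 0.93, 0.94 and 1.04 in DMH. Without tumors Plk1 was 2.14-fold lower than DMH (-1.10 ± 0.10, adjusted p = 0.000207), whereas with tumors it differed by -0.11 ± 0.10 (adjusted p = 0.423). The direct difference of -0.98 ± 0.10 passed (adjusted p = 0.000239; -0.99 and 0.013 with slide as a block). Aurka, which matures the spindle poles, was 2.1-fold lower without tumors and lower by -0.31 ± 0.08 with them (adjusted p = 0.0174). The latter call was lost in 5 of 22 other settings, a count that holds the slide block fit more than once. Among them were the fits without DMH replicate 3 (-0.28, adjusted p = 0.0617) and with slide as a block (-0.23, adjusted p = 0.0569). It was also lost in the authors' deposited values (-0.44, adjusted p = 0.141). Nek2, which separates the centrosomes, was lower by -0.75 ± 0.09 and -0.52 ± 0.09 (adjusted p = 0.000815 and 0.00399).

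**Figure D3:**
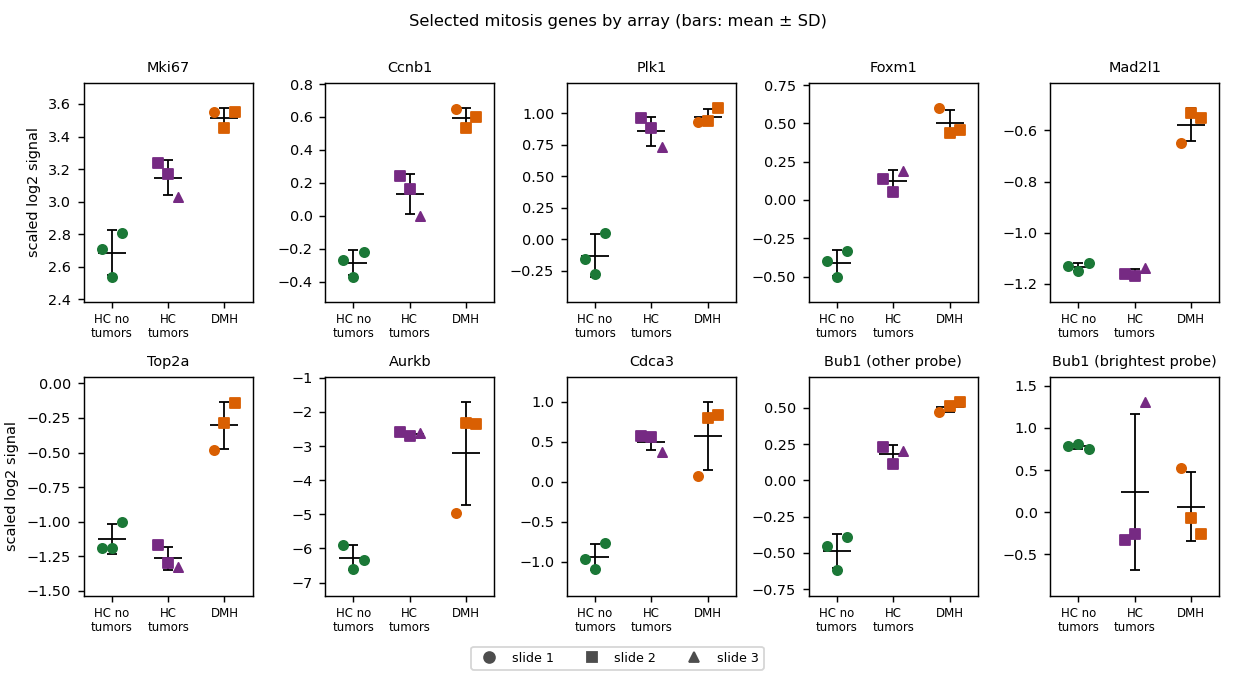
Scaled log2 signal of 9 mitosis genes on each array, by group (HC, high calcium), with marker shapes for slides 1 to 3, and mean ± SD as bars; each panel has its own axis. Mki67, Ccnb1, Foxm1 and the other probe of Bub1 form 3 separate levels, Mad2l1 and Top2a form 2, and on slide 1 Aurkb and Cdca3 are low in DMH replicate 1 as well.

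The spindle checkpoint holds anaphase back until every kinetochore is attached. Of its 4 members 3 were lower in the mean of both high calcium groups. Bub1b, the checkpoint protein BubR1, changed most: it read -1.36, -1.52 and -1.26 without tumors, -0.87, -0.98 and -0.99 with tumors, and -0.60, -0.48 and -0.41 in DMH. These were 3 levels without overlap, and the mean difference was -0.67 ± 0.07 (adjusted p = 0.000591). Mad2l1, whose product binds and restrains Cdc20, read -1.13, -1.15 and -1.12 without tumors, -1.16, -1.17 and -1.14 with tumors, and -0.65, -0.53 and -0.55 in DMH. Its high calcium arrays stood within a narrow band below DMH (-0.57 ± 0.04, adjusted p = 0.000109), and the groups with and without tumors differed by 0.02 ± 0.05 (adjusted p = 0.7). Ttk, the kinase Mps1 that starts checkpoint signalling, was lower by -0.62 ± 0.14 (adjusted p = 0.0148). Its call was lost without DMH replicate 2 or 3 (-0.57 and -0.52, adjusted p = 0.0606 and 0.0669) and with normexp, another background correction (-0.14, adjusted p = 0.525).

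Bub1, the kinase that recruits other checkpoint proteins to kinetochores, was the exception, and its probes disagreed. The brightest probe, matched to transcript NM_001113179, read 0.79, 0.81 and 0.75 without tumors, -0.33, -0.26 and 1.31 with tumors, and 0.53, -0.07 and -0.26 in DMH. Its values followed the slides more than the groups: the 4 arrays of slide 1 lay between 0.53 and 0.81, the 4 of slide 2 between -0.33 and -0.07, and the lone array of slide 3 was at 1.31. The difference of 0.45 ± 0.37 did not pass (adjusted p = 0.405). Without the array on slide 3 the group without tumors was higher than DMH (0.72, adjusted p = 0.0232) and than the group with tumors (1.08, adjusted p = 0.00573). The other probe, matched to NM_009772, read -0.45, -0.62 and -0.39 without tumors, 0.23, 0.11 and 0.20 with tumors, and 0.47, 0.51 and 0.54 in DMH. It formed 3 levels without overlap like most members, with a mean difference of -0.66 ± 0.06 (adjusted p = 0.000334).

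The anaphase promoting complex and separase end mitosis, and all 4 members of this role were lower, none of them a core subunit of the complex. Among subunits in a further list, Anapc4 passed in the mean (-0.20 ± 0.06, adjusted p = 0.0408). Cdc16, Cdc23, Cdc27 and Anapc5 did not (-0.07, -0.14, -0.16 and -0.06, adjusted p from 0.0534 to 0.457). Without tumors Anapc4, Cdc16, Cdc23 and Anapc5 were lower than DMH (adjusted p of at most 0.0205), and with tumors no subunit named here passed. Ube2c, the enzyme that hands ubiquitin to the complex, read 1.92, 1.87 and 2.10 without tumors, 2.35, 2.04 and 2.17 with tumors, and 2.88, 2.76 and 2.84 in DMH. The high calcium groups overlapped with each other and not with DMH, from which their mean differed by -0.75 ± 0.08 (adjusted p = 0.000645). Pttg1, securin, the inhibitor of separase, read 0.66, 0.67 and 0.97 without tumors, 1.52, 1.45 and 1.43 with tumors, and 1.62, 1.68 and 1.74 in DMH. It thus dropped mainly without tumors, with differences from DMH of -0.92 ± 0.09 (adjusted p = 0.00029) and -0.21 ± 0.09 (adjusted p = 0.0991) and a direct difference of -0.70 ± 0.09 (adjusted p = 0.000662). Cdc20, the activator of the complex, was lower by -0.59 ± 0.08 in the mean and Espl1, separase itself, by -0.60 ± 0.10 (adjusted p = 0.00214 and 0.00373). With tumors, neither call held throughout: that of Cdc20 (-0.30 ± 0.10, adjusted p = 0.0494) was lost in 14 of 22 other settings and that of Espl1 (-0.42 ± 0.11, adjusted p = 0.0239) in 11.

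The chromosomal passenger complex, in which Aurkb is the kinase and Incenp, Birc5 and Cdca8 place it on chromosomes, differed between the high calcium groups in all 4 members. Birc5, survivin, read 1.67, 1.47 and 1.87 without tumors, 2.58, 2.60 and 2.43 with tumors, and 2.71, 2.79 and 2.72 in DMH. It was 2.1-fold lower than DMH without tumors (-1.07 ± 0.10, adjusted p = 0.000277), stood at -0.20 ± 0.10 with tumors (adjusted p = 0.172), and differed by -0.87 ± 0.10 between the 2 groups (adjusted p = 0.000485). Incenp, the scaffold, read 2.07, 1.96 and 2.15 without tumors, 2.51, 2.5 and 2.42 with tumors, and 2.63, 2.55 and 2.56 in DMH. Its mean difference was the smallest of the complex at -0.31 ± 0.05 (adjusted p = 0.00431), and the groups with and without tumors differed by -0.42 ± 0.06 (adjusted p = 0.00133). Cdca8, borealin, was 2.0-fold lower without tumors (adjusted p = 0.000204) and differed by -0.32 ± 0.09 with tumors (adjusted p = 0.0247, lost in 9 of 22 other settings).

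In the group without tumors Aurkb was well above background on 0 of 3 arrays. It read -5.89, -6.61 and -6.33 there, -2.59, -2.72 and -2.63 with tumors, and -4.95, -2.33 and -2.35 in DMH. The low DMH array was replicate 1, on slide 1 with the arrays without tumors. That DMH array was not well above background either. Since the dim group gives only a bound, the signal was placed at 7.3-fold or more higher with tumors than without. The difference between these groups in the fit passed (adjusted p = 0.00336). The bound sets the mean of the bright group against, on each dim array, the higher of the probe's own signal and the lowest signal of any probe well above background. On DMH replicate 1 the Aurkb probe was not well above background at -4.95, so this floor may lie too low and the bound too high. No fold is given between the arrays without tumors and DMH, whose difference in the fit passed (adjusted p = 0.0102), since on slide 1 neither side was well above background; with normexp this call was lost (-0.53, adjusted p = 0.261). The call between the high calcium groups was lost with normexp (-0.86, adjusted p = 0.0607) and with slide as a block (-1.01, adjusted p = 0.0703), the latter a value that rests on the dim arrays of slide 1. The mean of both high calcium groups did not differ past the threshold from DMH (-1.25 ± 0.57, adjusted p = 0.14), but did without DMH replicate 1 (-2.12, adjusted p = 0.000535) and with slide as a block (-0.82, adjusted p = 0.0133, with the same dim arrays).

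Centromere and kinetochore genes, which link chromosomes to microtubules, were lower in 5 of 6 members. Spc25, of the Ndc80 complex that grips microtubules, changed most: it read -1.65, -1.67 and -1.57 without tumors, -1.72, -1.78 and -1.99 with tumors, and -0.95, -0.87 and -0.74 in DMH. Every high calcium array was far below DMH (-0.88 ± 0.07, adjusted p = 0.000235), with the lowest values in the group with tumors and no call between the 2 groups (0.20 ± 0.09, adjusted p = 0.0885). Nuf2, of the same complex, read -0.25, -0.27 and -0.18 without tumors, 0.12, -0.01 and -0.08 with tumors, and 0.51, 0.41 and 0.45 in DMH. Unlike Spc25 it formed 3 levels, with a mean difference of -0.57 ± 0.06 (adjusted p = 0.000405) and -0.24 ± 0.06 between the high calcium groups (adjusted p = 0.0163). That last call was lost without replicate 1 or 2 of the group without tumors (adjusted p = 0.0527 and 0.0523).

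Cenpa, the histone variant that marks centromeres, read -3.37, -3.29 and -3.01 without tumors, -1.56, -1.67 and -2.19 with tumors, and -2.40, -1.30 and -1.31 in DMH. Again DMH replicate 1, on slide 1, lay apart from the other DMH arrays. Without tumors Cenpa was 2.92-fold lower than DMH (-1.55 ± 0.32, adjusted p = 0.00826). Within slide 1 the difference was -0.82, against DMH replicate 1 alone. It was also 2.67-fold lower without than with tumors (-1.42 ± 0.32, adjusted p = 0.0083; -0.51 and 0.0898 with slide as a block). The mean of both groups against DMH did not pass (-0.84 ± 0.27, adjusted p = 0.0529), and it did without DMH replicate 1 (-1.21, adjusted p = 0.00384) and with slide as a block (-0.56, adjusted p = 0.00671). The motor Cenpe and the large kinetochore protein Cenpf were lower without tumors by -0.94 ± 0.08 and -1.14 ± 0.13 (adjusted p = 0.000193 and 0.000701), and Ndc80 by -0.79 ± 0.08 (adjusted p = 0.000337; -0.25 and 0.318 with normexp). With tumors the call for Cenpf (-0.41 ± 0.13, adjusted p = 0.0481) was lost in 14 of 22 other settings. DMH replicate 1 lay over 0.5 units from the mean of the other DMH arrays in 4 of the 48 members: Aurkb, Cenpa, Cdca3 and, upward, Bub1.

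Spindle motors and assembly factors were lower in all 7 members. Kif11, the motor that pushes the spindle poles apart, was equally low in both groups (-0.63 ± 0.08 and -0.64 ± 0.08, adjusted p = 0.000815 and 0.00085). Tpx2, which nucleates spindle microtubules, and Nusap1, which bundles them, were lower by -0.98 ± 0.07 and -0.94 ± 0.06 without tumors and by -0.44 ± 0.07 and -0.39 ± 0.06 with tumors, and both also passed between the high calcium groups (adjusted p = 0.000694 and 0.000442). Kif4, a chromosome-bound kinesin, read -0.41, -0.53 and -0.35 without tumors, 0.04, -0.05 and -0.11 with tumors, and 0.25, 0.21 and 0.25 in DMH. It had the same 3 levels at a smaller size (-0.47 ± 0.05 in the mean, adjusted p = 0.000784). Kif2c, which takes microtubules apart at kinetochores, passed in the mean at -0.51 ± 0.15 (adjusted p = 0.0349), a call lost in 13 of 20 other settings, among them those without any single array except replicate 2 of the group without tumors (adjusted p from 0.0519 to 0.119).

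Ckap2, which promotes spindle microtubule growth, read -2.79, -2.98 and -2.60 without tumors, -1.76, -1.88 and -1.95 with tumors, and -1.88, -1.52 and -1.49 in DMH. The arrays without tumors lay below all others, 2.24-fold below DMH (-1.17 ± 0.13, adjusted p = 0.000617), and the groups with and without tumors differed by -0.93 ± 0.13 (adjusted p = 0.00115; -0.60 and 0.0601 with slide as a block). Hmmr, a spindle protein that also binds hyaluronan, went the other way. It read -3.83, -4.16 and -4.11 without tumors, -4.40, -4.97 and -4.62 with tumors, and -3.44, -3.49 and -3.36 in DMH. It was the only member of the 48 called higher without than with tumors (0.63 ± 0.15, adjusted p = 0.0111), and it was lower than DMH in both groups, by -0.60 ± 0.15 and -1.23 ± 0.15 (adjusted p = 0.0182 and 0.000903). The first of these calls was lost without replicate 2 or 3 of the group without tumors or DMH replicate 3 (adjusted p = 0.0619, 0.0616 and 0.0628), and with slide as a block (-0.59, adjusted p = 0.121). The signal was dim, and with the normexp background correction all of its calls were lost (0.17 between the high calcium groups, adjusted p = 0.534); with slide as a block the call between these groups was lost as well (0.67, adjusted p = 0.156).

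Cytokinesis genes, which build the midzone and the contractile ring that part the daughter cells, were lower in all 5 measured members. Ect2, the exchange factor that activates RhoA at the equator, read 0.06, -0.18 and 0.08 without tumors, 0.57, 0.41 and 0.37 with tumors, and 0.88, 0.95 and 1.03 in DMH. These were 3 levels without overlap (-0.73 ± 0.08 in the mean, adjusted p = 0.000581). Racgap1, the centralspindlin subunit that binds Ect2, read -1.42, -1.43 and -1.27 without tumors, -0.92, -0.95 and -1.09 with tumors, and -0.62, -0.72 and -0.63 in DMH. Its order was the same, with a mean difference of -0.52 ± 0.06 (adjusted p = 0.000741). The motors Kif20a and Kif23 were lower without tumors by -1.05 ± 0.09 and -0.91 ± 0.09 (adjusted p = 0.000151 and 0.000389), and Anln, anillin of the contractile ring, by -0.65 ± 0.07 (adjusted p = 0.000469; -0.27 and 0.274 with normexp).

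Genes of chromosome structure were lower in 5 of 6 members, but not alike. Top2a, the topoisomerase that untangles sister chromatids, read -1.19, -1.19 and -1 without tumors, -1.17, -1.30 and -1.33 with tumors, and -0.48, -0.29 and -0.14 in DMH. Both high calcium groups overlapped well below DMH, by 1.86-fold in their mean (-0.89 ± 0.09, adjusted p = 0.000416), and differed from each other by 0.14 ± 0.10 (adjusted p = 0.286). Mki67, the proliferation antigen Ki-67 that coats mitotic chromosomes, read 2.71, 2.54 and 2.81 without tumors, 3.24, 3.17 and 3.03 with tumors, and 3.55, 3.45 and 3.55 in DMH. It formed 3 levels, with -0.46 ± 0.09 between the high calcium groups (adjusted p = 0.00372).

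Condensins compact the chromosomes, and their subunits differed among themselves. Ncaph was low in both high calcium groups (-0.79 ± 0.07 and -0.69 ± 0.07, adjusted p = 0.000261 and 0.000561), whereas Ncapg was low without tumors (-0.98 ± 0.08, adjusted p = 0.000156) and stood at -0.20 ± 0.08 with tumors (adjusted p = 0.102), a direct difference of -0.79 ± 0.08 (adjusted p = 0.000288). Smc2, a core subunit, was lower by -0.67 ± 0.09 and -0.60 ± 0.09 (adjusted p = 0.0012 and 0.00196). Smc4, its partner, read 2.06, 2.00 and 2.05 without tumors, 2.48, 2.51 and 2.33 with tumors, and 2.27, 2.10 and 2.46 in DMH. Its mean difference from DMH was -0.04 ± 0.08 (adjusted p = 0.739), the smallest of all members in size, and only the high calcium groups differed from each other (-0.40 ± 0.09, adjusted p = 0.0102; -0.45 and 0.106 with slide as a block). Without DMH replicate 2 Smc4 was lower than DMH in the group without tumors as well (-0.33, adjusted p = 0.0328).

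The transcription factors that act on these genes did not move alike. Foxm1, which drives G2 and mitosis genes, read -0.40, -0.50 and -0.33 without tumors, 0.14, 0.05 and 0.19 with tumors, and 0.60, 0.44 and 0.46 in DMH. It formed 3 levels without overlap, with differences from DMH of -0.91 ± 0.07 and -0.37 ± 0.07 (adjusted p = 0.000104 and 0.00501) and -0.54 ± 0.07 between the groups (adjusted p = 0.000698). Mybl2, B-Myb, which is transcribed earlier in the cycle, read -0.49, -0.55 and -0.45 without tumors, -0.57, -0.61 and -0.25 with tumors, and -0.17, -0.29 and -0.26 in DMH. Its mean difference of -0.25 ± 0.08 did not pass (adjusted p = 0.0592), and it did without replicate 3 of the group with tumors (-0.30, adjusted p = 0.00443), the array alone on slide 3. With slide as a block, which leaves out the same array, Mybl2 was lower in the mean, without tumors and with tumors (-0.32, -0.33 and -0.31, adjusted p = 0.00286, 0.0147 and 0.00715).

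The probe chosen for a gene moved the differences of the group with tumors. For 14 members more than 1 probe was kept, with 15 probes beside the brightest ones. Of these 15, 13 were lower in the mean of both high calcium groups and 0 higher, against 12 of the 14 brightest probes. Between the high calcium groups 7 of the 15 were lower and 1 was higher, against 11 of the 14 brightest lower, and the medians were -0.14 and -0.46. With tumors against DMH, 9 of the 15 and 7 of the 14 brightest were lower, with medians of -0.5 and -0.26, whereas without tumors the medians were -0.85 and -0.9. Second probes of Cdca8, Ncapg, Racgap1 and Mki67 gave -0.01 ± 0.13, 0.10 ± 0.21, 0.16 ± 0.18 and -0.14 ± 0.09 between the groups (adjusted p = 0.941, 0.713, 0.471 and 0.23), and all 4 were lower with tumors than in DMH, by -0.86 ± 0.13, -0.95 ± 0.21, -0.95 ± 0.18 and -0.50 ± 0.09 (adjusted p of at most 0.0103). The second probes of Ncapg and Racgap1 were dim, with mean levels of -5.24 and -4.03, against 0.97 and -1.01 for the brightest. For Cdca8 the second probe was also much dimmer, at -2.84 against 1.35 for the brightest. The second probe of Ect2 gave 0.48 ± 0.31 between the high calcium groups (adjusted p = 0.238). That of Cks2 passed against DMH in the mean where the brightest did not (-0.27 ± 0.07, adjusted p = 0.0203). Those of Bub1, Ccnb1, Cenpe, Ckap2, Kif23 and Kif4 were lower without than with tumors, as the brightest probes of these genes except Bub1 were. A dim second probe of Smc2 was higher without tumors than in DMH (1.08 ± 0.28, adjusted p = 0.0193) and than with tumors (1.66 ± 0.28, adjusted p = 0.00197).

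Other genes of mitosis showed the same direction at a smaller size. From a list of further regulators, kinetochore, cohesin and centrosome genes, 77 were tested. In the mean of both high calcium groups 50 were lower and 2 higher, with a median of -0.30, against 13.8% and 17.9% of all features. Without tumors 55 were lower and 1 higher (median -0.46), against 17.3% and 18.4% of all features. With tumors 32 were lower and 1 higher (median -0.21), against 15.9% and 21.0%. Cenpm, of the centromere-associated network, was the largest called in the mean: it read -2.51, -2.67 and -2.61 without tumors, -2.60, -2.67 and -2.87 with tumors, and -1.70, -1.64 and -1.58 in DMH. It was thus equally low in both high calcium groups, by -1.01 ± 0.07 (adjusted p = 0.00011). Kif18b, a kinesin of spindle microtubule ends, and Ccnf, cyclin F, were lower by -0.87 ± 0.12 and -0.85 ± 0.09 (adjusted p = 0.00149 and 0.000467). The 2 that were higher, named after their values were seen, were the cohesin regulator Pds5a (0.34 ± 0.05, adjusted p = 0.00289) and Hjurp, the chaperone that deposits Cenpa (0.32 ± 0.08, adjusted p = 0.026).

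Genes of DNA replication, which precedes mitosis, were measured as well. Of 42 tested, 9 were lower and 1 higher in the mean of both high calcium groups, with a median of -0.11, at the background of 13.8% lower and 17.9% higher. Without tumors 9 were lower and 3 higher (median -0.03), against 17.3% and 18.4% of all features. Single replication genes differed there by -2.65 to 0.65, and 1 was called at 2-fold or more. With tumors 16 were lower and 0 higher (median -0.14), against 15.9% and 21.0%. Between the high calcium groups 17 replication genes were higher without tumors and 4 lower, with a median of 0.13, at the background of 20.6% higher and 27.0% lower. Pcna, the sliding clamp of DNA polymerase, read 4.10, 4.05 and 4.09 without tumors, 3.7, 3.64 and 3.6 with tumors, and 3.99, 3.91 and 3.95 in DMH. It was lower than DMH with tumors (-0.30 ± 0.05, adjusted p = 0.00254), stood at 0.13 ± 0.05 without (adjusted p = 0.0644), and was higher without than with tumors (0.43 ± 0.05, adjusted p = 0.000356). Ccne2, cyclin E2 of the G1 to S step, was higher than DMH without tumors (0.65 ± 0.06, adjusted p = 0.000207) and lower with them (-0.22 ± 0.06, adjusted p = 0.021). Rrm2, the ribonucleotide reductase subunit, was lower in both groups, by -0.70 ± 0.06 and -0.62 ± 0.06 (adjusted p = 0.00016 and 0.000383). The helicase subunit Mcm2 overlapped between all groups and differed by -0.14 ± 0.10 in the mean (adjusted p = 0.357).

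**Figure D4:**
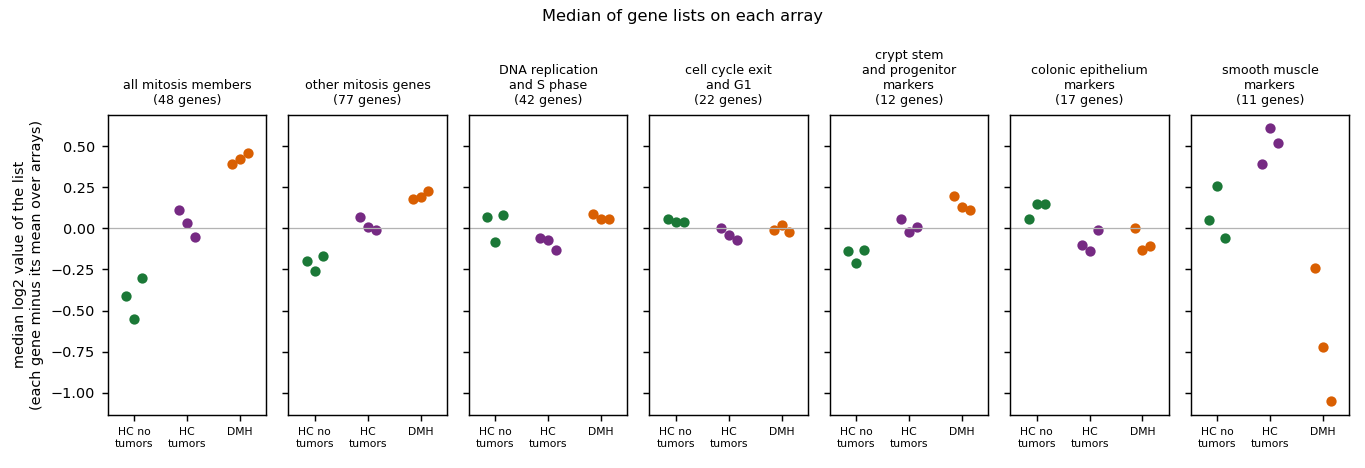
Median log2 value of 7 gene lists on each array, each gene taken relative to its own mean over the 9 arrays (HC, high calcium). The mitosis genes run from -0.55 to -0.30 without tumors, -0.05 to 0.11 with tumors and 0.39 to 0.46 in DMH, the replication genes stay between -0.13 and 0.09, and smooth muscle markers are lowest in DMH.

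Genes of cell cycle exit and G1 showed no shift as a list, with 4 of 22 lower and 3 higher in the mean of both high calcium groups (median 0.04). Over all features 13.8% were lower and 17.9% higher. The cyclin-dependent kinase inhibitor Cdkn1b, p27, was higher by 0.28 ± 0.05 (adjusted p = 0.00574), and Cdkn1a, p21, differed by 0.13 ± 0.07 (adjusted p = 0.176). No probe was named here for cyclin D1. Among 12 crypt stem and progenitor markers 6 were lower and 0 higher (median -0.20), at the same background. Myc was lower by -0.50 ± 0.05 (adjusted p = 0.00033). The stem cell receptor Lgr5 was lower than DMH without tumors (-0.67 ± 0.06, adjusted p = 0.000254) and higher with tumors (0.56 ± 0.06, adjusted p = 0.00063).

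Markers of some other cell types differed between the groups as well. Over all features 13.8% were lower and 17.9% higher in the mean of both high calcium groups. Without tumors these shares were 17.3% and 18.4%, and with tumors 15.9% and 21.0%. Between the high calcium groups 27.0% were lower and 20.6% higher. Smooth muscle markers were higher in the high calcium groups in 11 of 11 tested (median 1.02), and the log2 of their summed signal was 8.77 to 9.08 without tumors, 9.26 to 9.65 with tumors and 7.88 to 8.65 in DMH. Adipocyte markers were lower in 8 of 9 (median -3.25), with summed levels of 2.63 to 3.55, 3.45 to 4.21 and 5.43 to 5.58. Among epithelial markers 1 of 17 was lower and 5 were higher in the mean of both groups, 1 lower and 8 higher without tumors, and 3 lower and 4 higher with tumors. Single epithelial markers differed by -0.81 to 1.26 without tumors and by -1.57 to 0.66 with tumors, and their summed level was 11.11 to 11.23, 11.03 to 11.09 and 10.9 to 11.09. Among B cell and follicle markers, which include dividing germinal centre cells, 6 of 13 were lower and 0 higher (summed 4.23 to 4.41, 4.25 to 4.56 and 4.5 to 4.7), and 6 of 8 myeloid markers were lower (summed 4.61 to 4.7, 4.46 to 4.6 and 4.89 to 4.91). T cell markers had 2 of 9 higher and 0 lower, fibroblast markers 3 of 8 higher and 1 lower, and endothelial markers 1 of 8 higher and 1 lower. Between the high calcium groups, without minus with tumors, 6 of 8 fibroblast markers were lower and 0 higher (median -0.42), 4 of 11 smooth muscle markers were lower and 0 higher (median -0.42), 7 of 17 epithelial markers were higher and 1 lower (median 0.24), and 4 of 9 T cell markers were higher and 0 lower (median 0.23). S100a8, a neutrophil marker, was well above background on 0 of 3 arrays without tumors. Muc2, Axin2, Olfm4, Synpo2, Cd8b1, Emr1, Cd68, Cd163 and Lep were not tested. Within groups, hCA-Tumor replicate 3 had the highest adipocyte signal of its group (median of centred values 0.57, against -1.14 and -1.23), and DMH replicate 1 the highest smooth muscle signal of its own (-0.24, against -0.72 and -1.05). Without both of these arrays, a setting added after the data were seen, 44 mitosis genes were lower in the mean of the high calcium groups and 1, Bub1, was higher, with the median again -0.63. The part of these cell types in the levels of the mitosis genes was not tested.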

How the data were processed

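The mitosis genes and all other lists were chosen with earlier results of these data known. Labelled RNA was hybridised to 1-colour Agilent arrays. Per the file headers, the deposited intensity values are green processed signals, background-subtracted by Feature Extraction (10.5.1.1, per the submitters' processing notes). The authors' deposited table of the whole series holds log2 values of 23726 probes, each equal to the processed signal in log2 less the median of its array (r at least 0.999995, column medians 2.36 to 2.8). The rule behind its choice of probes was not stated.

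From the processed signal, log2 minus each array's 75th percentile (572.5 to 819.2) was computed without control and outlier spots. Median local background was 33.5 to 50, saturated spots numbered 0, and 61.1 to 73.7% of 41174 probes were well above background. RefSeq (GRCm38.p6) accessions named 25097 probes and left 16077 unnamed. A probe well above background on all 3 arrays of a group was kept, and the brightest stood for its gene. The fit used limma 3.58.1 (lmFit, eBayes, all 9 arrays; R 4.3.3), tested on simulated data, with Benjamini-Hochberg adjustment over 21084 features in each of 4 contrasts. Errors are its standard errors. With so few arrays all values have limited precision.

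By rule, all arrays are given for the largest and smallest change of each role, the 6 largest changes between the high calcium groups and members called against their role; Cdk1, Ccnb1, Mad2l1, Mki67, Cenpm, Pcna and second probes were added after their values were seen. Other lists give up to 4 called genes per contrast and a fixed panel. Alternatives were normexp (offset 50), quantile scaling, the deposited table, other filters and fits, the mean of a gene's probes, slide and replicate blocks, and each array left out.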

Additional observations from a re-analysis of the deposited data

How the results depend on the processing

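The falls against DMH kept their direction in the members called under the alternatives run, with one gene as exception. With normexp background correction the median over the mitosis genes was -0.53 for both high calcium groups, -0.7 without tumors and -0.29 with tumors. In the authors' deposited table, on which the median of all features was -0.11 against 0.07, it was -0.79, -1.04 and -0.52, and the number of members called was 15 with tumors and 19 between the high calcium groups. The causes were not tested. With the mean of a gene's probes Smc2 turned to 0.21 without tumors (adjusted p = 0.311) and to 0.79 between the high calcium groups (adjusted p = 0.00393), and Ect2 to 0.01 there (adjusted p = 0.974); a dim second probe enters these means.

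Leaving out each array in turn gave 39 to 43 calls and medians of -0.66 to -0.61 for both groups, 42 to 47 and -0.9 to -0.81 without tumors, 26 to 33 and -0.43 to -0.36 with tumors, and 30 to 34 and -0.48 to -0.38 between the high calcium groups. With slide as a block the calls were 44, 42, 26 and 22. Same-numbered arrays did not deviate together (r from -0.567 to 0.221), and the replicate block gave 41, 44, 27 and 31 calls with medians of -0.63, -0.85, -0.39 and -0.42. Calls held in every setting run for 34 of 42, 37 of 45, 13 of 31 and 14 of 32 members. In the mean of both groups, Hmmr, Ttk, Ndc80, Anln and Kif2c lost their calls under normexp.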

Other observations

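Of the 77 other mitosis genes tested, 5 had DMH replicate 1, the DMH array on slide 1, more than 0.5 log2 units from the mean of the other DMH arrays: Ckap2l (-1.33), Kif20b (-1.15), Wee1 (-1.62), Ncapd3 (-0.52) and Nsl1 (-0.55). Kif20b, a kinesin of cytokinesis, read -3.34, -3.78 and -3.31 without tumors, -1.78, -2.30 and -2.05 with tumors, and -2.77, -1.61 and -1.64 in DMH. DMH replicate 1 lay between the arrays without tumors and the other DMH arrays. These genes were picked after their values were seen.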
